A study of Rattus norvegicus with 2 samples.

Results

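Tubulins are the subunits of microtubules. An alpha and a beta tubulin, each made from one of several closely related genes, fold with the help of chaperones, join as a dimer and add to the microtubule end, while gamma-tubulin sets where a microtubule starts. Cells hold their tubulin supply in check by destroying tubulin mRNA on the ribosome when free dimers are plentiful, and in mast cells microtubules carry secretory granules toward the surface after the IgE receptor is engaged. The 10 tubulin genes described here are 4 alpha genes (Tuba1a, Tuba1b, Tuba1c and Tuba4a) and 6 beta genes (Tubb2a, Tubb2b, Tubb3, Tubb4b, Tubb5 and Tubb6), of 15409 gene symbols measured. They were chosen by symbol and selected on the very contrast reported here, because Tuba1c was nearly absent from the treated library. Every fold below is therefore a description and carries no test.

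The libraries came from RBL-2H3, a rat basophilic leukaemia line that is a common model of mast cells. 1 library was made from cells given normal saline and 1 from cells given fine airborne particles (PM2.5) plus IgE and its antigen DNP-HSA, which crosslinks IgE on the receptor. The labels do not state whether the saline cells received IgE or antigen, nor the time or the unit behind the number 100 in the treated title. Their extraction text joins particles and antigen with "or" where the treatment field has "plus". With 1 library per group no difference between conditions could be tested, and fewer cells and less RNA per cell cannot be told apart in bulk RNA.

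Values are normalised read counts, that is, reads divided by the library's size factor, and folds are log2 of treated over saline after adding 1. The saline library held 7279671 reads and the treated library 3964955, so that 1 read is worth a normalised count of 0.867 in the first and 1.65 in the second. Each interval starts from the exact 95% interval of the part of a gene's reads that came from the treated library, expressed as a ratio. Such intervals cover counting error only, not the spread between cultures. All 11 mast cell and basophil markers were detected. Kit, the stem cell factor receptor, stood at 10361 in saline and 8985 in treated cells, and Gata2, a mast cell transcription factor, at 8748 and 6407. Of the 11 markers, 8 were above 0, with a median log2 fold of 0.44. The mast cell carboxypeptidase Cpa3 was higher at 1.74, with 175 and 308 reads, as was Rab27b, a GTPase of granule release, at 1.76, with 180 and 322 reads. Hdc, which makes histamine, was lower at -1.07.

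All 10 tubulin genes had a lower normalised count in the treated library. Their median log2 fold was -0.60, beside -0.07 over the 15097 symbols that reached a normalised count of 1 in either library. Of those symbols 54.3% lay below 0. Among the 1179 symbols with a saline count of at least 1000, a level that 6 members reached, 61.7% did, with a median of -0.16. The size rule asks for a log2 fold of 1 or more, or of -1 or less. By it 2 members were lower, Tuba1c and Tubb3, and none was higher. Over all symbols 31.1% passed that rule, 19.1% as lower and 12.1% as higher, so the share of members past it was not above the background. Tubb3 lay just inside the threshold at -1.09 and Tuba4a just outside it at -0.94. Summed over the 10 genes, the count was 25516 in saline and 20238 in treated cells, a log2 fold of -0.33.

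**Figure D1:**
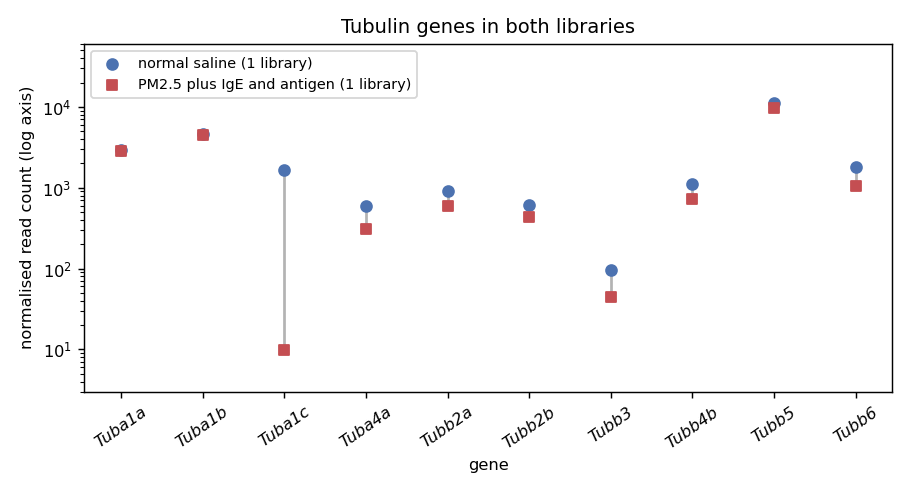
Normalised read counts (vertical log axis) of the 10 tubulin genes, 1 point per library, with circles for normal saline and squares for PM2.5 plus IgE and antigen. The 2 points nearly coincide for Tuba1a and for Tuba1b, and Tuba1c drops from 1649 to 9.91.

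Among the alpha genes, Tuba1c was the outstanding difference. This ubiquitous alpha tubulin gene, 1 of 3 near-identical Tuba1 genes, had 1901 reads in the saline library and 6 in the treated library. In normalised counts that was 1649 against 9.91, so that 0.601% of the saline level was left. The log2 fold was -7.24, with an interval of -8.83 to -6.25. The authors' deposited table lists this transcript with a p-value of 0.446 and an adjusted p-value of 0.920. No library replicates the difference.

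The 2 other Tuba1 genes differed little between the libraries. Tuba1a, the alpha tubulin best known from developing neurons, had 3359 and 1705 reads, a normalised count of 2913 in saline and 2816 in treated cells. Its log2 fold of -0.05 had an interval of -0.13 to 0.04, which includes no difference. Tuba1b, the widely expressed housekeeping alpha tubulin, had 5268 and 2731 reads, or 4569 and 4511 in normalised counts. Its log2 fold was -0.02, with an interval of -0.09 to 0.05.

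Since copies this alike can trade reads when short reads are assigned, the 3 genes were also summed. The sum was 9131 in saline and 7337 in treated cells, a log2 fold of -0.32 with an interval of -0.37 to -0.26. The treated sum was lower by 1795 normalised counts, of which Tuba1c made up 91.3%. Neither partner had a higher count in treated cells. Tuba1a was lower by 97.3 and Tuba1b by 58.4 normalised counts, while Tuba1c was lower by 1639. For Tuba1a and Tuba1b together, the upper end of the counting interval is a net difference of 115 normalised counts, 7.04% of what Tuba1c lacked. These are net values: reads taken over from Tuba1c and a lower level of the copies themselves cannot be told apart in them, and the other 7 members had lower counts of their own. Further Tuba1-like rows could be looked for by symbol only: 4 more tubulin symbols (Tuba3a, Tuba3b, Tubal3 and Tubb1) are not among the symbols analysed here, and no tubulin symbol with a pseudogene suffix was found. Of 1276 transcripts without a symbol, 5 reached a treated count of at least 500 and stood at least 20-fold above saline. All 5 are predicted lncRNAs: XLOC.26386.1 with 51 and 915 reads, XLOC.26386.2 with 0 and 742, XLOC.20662.2 with 0 and 500, XLOC.17958.1 with 22 and 367, and XLOC.10836.2 with 0 and 327. Another 5 rows, these with a symbol, passed the same rule and are given under the other observations. Smaller gains spread over several rows would not pass it. Whether any unnamed or clone-named row holds Tuba1c-like sequence was not tested. Reads that matched several copies equally well may have been left out or shared, since the sources used here do not give how they were counted.

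As shares of the reads of the 3 Tuba1 genes, Tuba1c made up 18.1% in saline (exact 95% interval 17.3% to 18.8%) and 0.135% in treated cells (0.0496% to 0.294%). Tuba1a made up 31.9% in saline and 38.4% in treated cells. Tuba1b made up 61.5% in treated cells, above its saline interval of 49.1% to 51.0%. The larger shares of both partners go with a smaller total, and neither had a higher normalised count in treated cells. These shares too are net values, and whether reads moved between the copies was not tested.

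Tuba4a, an alpha tubulin made in many tissues and abundant in platelets and muscle, had 686 and 187 reads. Its normalised count was 595 in saline and 309 in treated cells, a log2 fold of -0.94 with an interval of -1.19 to -0.71. It was the alpha gene with the largest difference after Tuba1c. Without Tuba1c, the alpha genes summed to 8077 in saline and 7636 in treated cells, a log2 fold of -0.08.

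**Figure D2:**
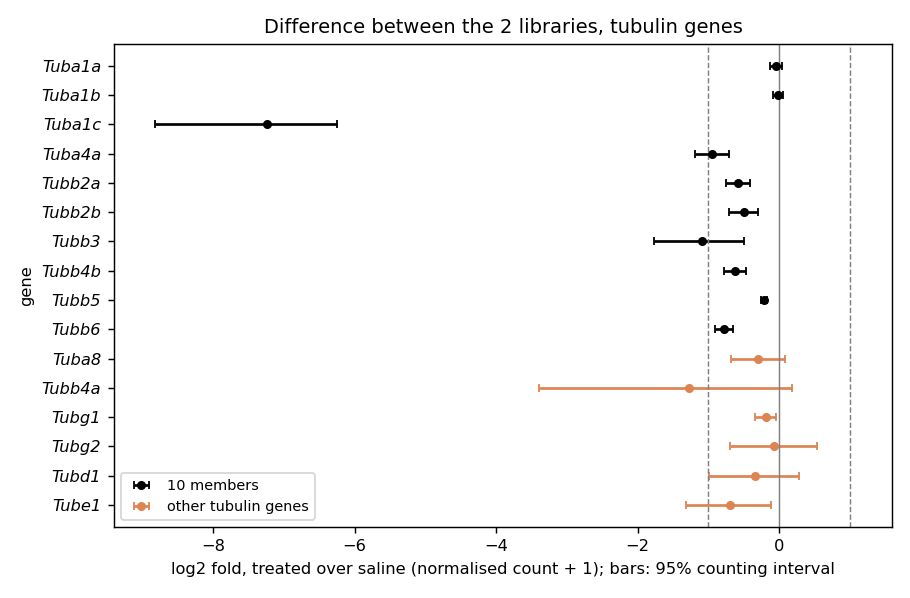
Log2 fold of treated over saline (horizontal axis) for the 10 members in black and 6 other tubulin genes in orange, with 95% counting intervals as bars and dashed lines at -1 and 1. Tuba1c at -7.24 stands far from the rest, which lie between -1.27 and -0.02.

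The promoters of the 4 alpha genes are shown because Tuba1c and its near-identical partners, which lie close together on 1 chromosome, differed so much in level change. Each line gives the 150 bases just before 1 annotated start of the gene in RefSeq on GRCr8, 5′ to 3′ on the gene's own strand. Capitals mark 3 promoter motifs found on either strand. The CCAAT box has the letters CCAAT. The GC box has the letters GGGCGG. The TATA motif has the letters TATAA. Their reverse complements were searched too and are also in capitals; none of the capital stretches printed here overlaps another.
Tuba1a (chr7:131995820-131995969, minus strand): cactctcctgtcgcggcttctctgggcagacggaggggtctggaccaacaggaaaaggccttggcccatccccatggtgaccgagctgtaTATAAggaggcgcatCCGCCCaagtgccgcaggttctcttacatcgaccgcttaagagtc
Tuba1b (chr7:131972588-131972737, minus strand): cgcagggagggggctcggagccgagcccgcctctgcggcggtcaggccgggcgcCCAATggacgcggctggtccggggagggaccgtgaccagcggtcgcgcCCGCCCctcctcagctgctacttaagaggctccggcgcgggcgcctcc
Tuba1c (chr7:132070834-132070983, plus strand): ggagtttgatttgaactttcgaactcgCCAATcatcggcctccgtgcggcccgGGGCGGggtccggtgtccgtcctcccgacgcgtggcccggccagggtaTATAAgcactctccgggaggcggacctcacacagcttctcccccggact
Tuba4a (chr9:84162585-84162734, minus strand): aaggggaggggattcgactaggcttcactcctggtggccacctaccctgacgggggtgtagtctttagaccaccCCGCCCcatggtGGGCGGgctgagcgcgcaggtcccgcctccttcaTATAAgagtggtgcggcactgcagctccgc
These starts may not be those of the transcripts counted in the files.

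Searched over the full 250 bases before the start, Tuba1c held 2 CCAAT boxes, 2 GC boxes and 1 TATA motif, the last beginning 49 bases before the start. Tuba1a held 1 of each, with its TATA motif beginning 60 bases before the start. Tuba1b held 1 CCAAT box, 3 GC boxes and no TATA motif, in the window with the highest GC content of the 10, at 80.4% beside 64.4% for Tuba1c and 56.8% for Tuba1a. The longest run of bases that Tuba1c shared with either Tuba1a or Tuba1b was 9, within the range of 7 to 11 over all 45 pairs of members. By this measure the windows of the Tuba1 genes did not stand out, but exact runs are a coarse measure. Likeness of the windows was not tested in another way. All 10 members had an entry. Of these, 8 held a CCAAT box, which 34.3% of 27457 promoters hold. A GC box was in 9, beside 32.4%, and a TATA motif in 6, beside 24.1%. The median GC content over all promoters was 52%, which no member window fell below, and these shares do not account for GC content. A match describes letters and not binding.

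In the RefSeq gene table, the record of Tuba1c holds several transcripts, begins well before the start used for its promoter window, and spans both Tuba1a and Tuba1b. The 6 protein-coding genes on each side of this group were looked up, and 10 of the 12 were listed. Of these 10, 9 were lower in the treated library, as were 8 of the 10 listed neighbours of Tubb5. Over all symbols past a count of 1, 54.3% were lower. Of the 6 Tuba1 neighbours with at least 20 saline reads, 5 were lower and 1, Dnajc22, was higher. Rhebl1, Spats2 and Dnajc22 had intervals that include no difference. Lmbr1l, a membrane receptor-like gene next to the group, had a log2 fold of -2.11, with 127 and 15 reads. Kmt2d, a histone H3 lysine methyltransferase, had one of -1.07, with 3917 and 977 reads. Spats2 was nearly level at -0.07. Of those 6 genes Lmbr1l had the largest difference, well short of that of Tuba1c.

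Across all symbols, a loss of this size was rare, but the genes were chosen because of it, so its rarity carries no test. Of 2574 symbols with a saline count of at least 500, 4 were at least 100-fold lower in treated cells on the log2 scale used here. Tuba1c was the one with a gene name; the other 3 carry clone-based names. Among the 6 members with a saline count of at least 1000, Tuba1c alone was at least 2-fold lower, as were 81 (6.87%) of the 1179 symbols at that level.

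**Figure D3:**
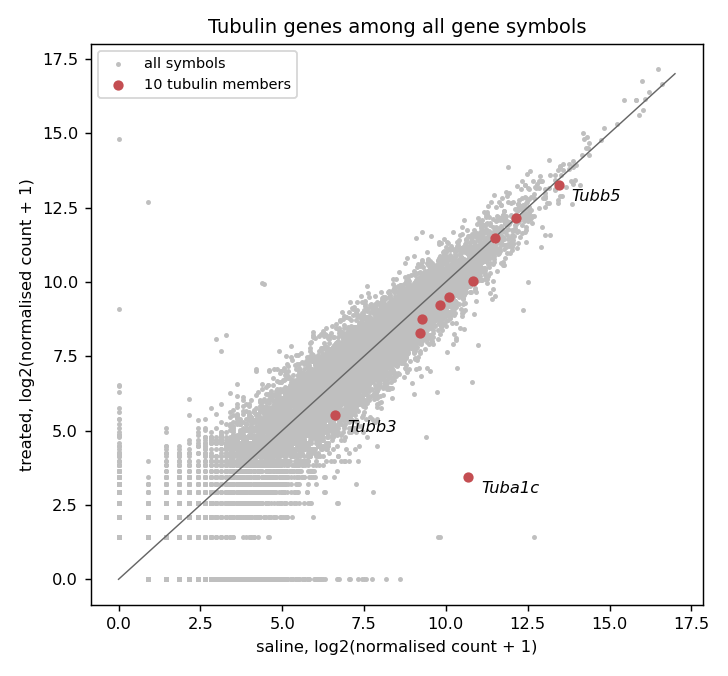
Log2 of the normalised count plus 1 in saline (horizontal axis) against treated cells (vertical axis) for all gene symbols in grey and the 10 tubulin members in red, with the line of equal levels. The members lie on or under the line, Tubb5 at the upper end and Tuba1c far below it.

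Of the beta genes, Tubb5, the main beta tubulin of dividing cells, had the most reads of any member, 13002 in saline and 5901 in treated cells. Its summed normalised count was 11277 and 9746, a log2 fold of -0.21 with an interval of -0.26 to -0.17. The sum joined 2 transcripts that differed in opposite directions. Transcript ENSRNOT00000079854 had 11186 and 2023 reads, or 9702 against 3341 in normalised counts, a log2 fold of -1.54. Transcript ENSRNOT00000084917 had 1816 and 3878 reads, or 1575 against 6405, a log2 fold of 2.02. The leading transcript of the gene was thus not the same in both libraries.

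The second Tubb5 transcript made up 14.0% of the gene's reads in saline (exact 95% interval 13.4% to 14.6%) and 65.7% in treated cells (64.5% to 66.9%). Of 2647 symbols with at least 2 transcripts, 515, or 19.5%, had transcripts past the size rule in opposite directions. Among the 55 symbols with at least 2 transcripts at a normalised count of 1000 or more, 7 did, Tubb5 among them. How reads were split between transcripts of 1 gene is not stated in the sources used here, and what sequence the 2 Tubb5 transcripts share was not analysed here. In the authors' deposited table the first transcript has a p-value of 0.0443 and the second one of 0.266, both with an adjusted p-value of 0.920. The first is the only one of the members' 13 transcripts among the 57 that the authors selected. Their table lists 20367 transcripts, of which 41 have a lower p-value than this one, and the lowest adjusted p-value of all is 0.920.

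**Figure D4:**
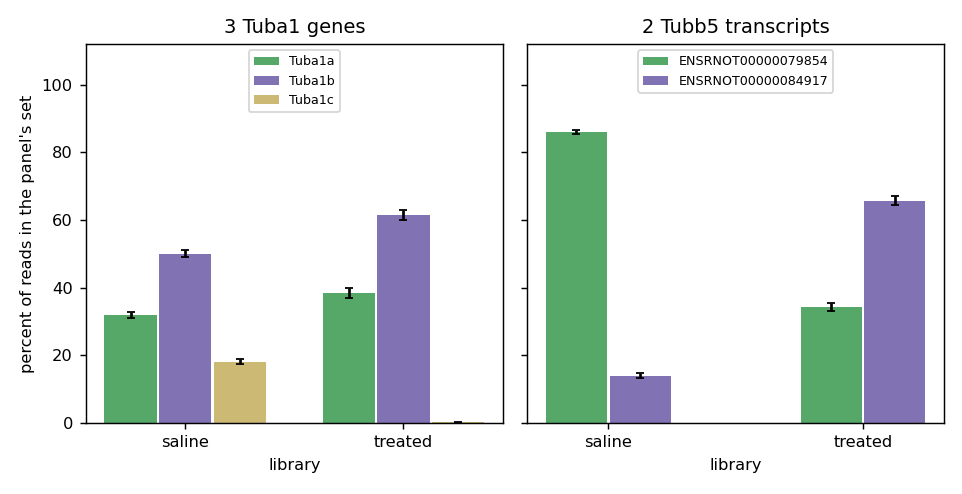
Percent of reads (vertical axis) that each of the 3 Tuba1 genes (left) and each of the 2 Tubb5 transcripts (right) takes in the saline and the treated library, with exact 95% intervals as bars. Tuba1c goes from 18.1% to 0.135%, and the second Tubb5 transcript from 14.0% to 65.7%.

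The 5 other beta genes differed more evenly. Tubb6, a beta tubulin of many non-neural tissues, had 2076 and 636 reads, or 1801 against 1050 in normalised counts, a log2 fold of -0.78 with an interval of -0.91 to -0.65. Tubb4b, a broadly expressed beta tubulin also used in cilia, had 1272 and 434 reads. That gave 1103 against 717 and a log2 fold of -0.62, with an interval of -0.78 to -0.46. Both stood clear of the small difference of Tubb5 by their counting intervals.

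Tubb2a and Tubb2b, a neighbouring pair of similar beta genes known from brain, were both moderately lower. Tubb2a had 1037 and 364 reads, or 899 against 601, a log2 fold of -0.58 with an interval of -0.76 to -0.41. Tubb2b had 707 and 262 reads, or 613 against 433, a log2 fold of -0.50 with an interval of -0.71 to -0.30. Their intervals overlap, so the pair cannot be ordered.

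In contrast to Tubb5, the 2 Tubb2a transcripts kept their split: ENSRNOT00000086264 held 51.3% of the gene's reads in saline and 52.2% in treated cells. Of the 2 Tubb2b transcripts, ENSRNOT00000083705 was rare, with 6 and 8 reads. Each of the other 7 members is listed with 1 transcript.

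Tubb3, the beta tubulin used as a neuron marker, was the member with the fewest saline reads, 111 against 27. Its normalised count was 96.3 in saline and 44.6 in treated cells. The log2 fold of -1.09 had a wide interval of -1.77 to -0.49, which spans the threshold of the size rule. Of 12 neuron markers 2 were measured. Synapsin gene Syn1 was at 197 and 117 and synaptophysin gene Syp at 39.0 and 19.8, both lower in treated cells, so the summed level of the pair was 236 in saline and 137 in treated cells. The part of these genes in the Tubb3 value was not tested. Defining neuron markers such as Rbfox3, Map2 and Nefl were not among the symbols analysed here.

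Without Tubb5, the beta genes summed to 4513 in saline and 2846 in treated cells, a log2 fold of -0.66. The 6 beta genes together gave -0.33, beside -0.35 for the 4 alpha genes. The summed alpha count was 0.616 of the beta count in saline and 0.607 in treated cells. Without Tuba1c, the ratio was 0.512 in saline and 0.606 in treated cells, so its closeness between the libraries rested on that gene. Gene lengths were not used, and the ratio follows reads and not molecules.

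Of 10 other tubulin genes 6 were measured, and all 6 were lower in treated cells, beside 54.3% of all symbols past a count of 1. Their median log2 fold was -0.32. Tubg1, the main gamma-tubulin, stood at 1055 and 925, a log2 fold of -0.19. Tubg2, its sister gene, stood at 60.7 and 57.8, a log2 fold of -0.07. The delta and epsilon tubulins of centrioles, Tubd1 and Tube1, had log2 folds of -0.34 and -0.69. Tuba8, an alpha tubulin of testis and muscle, had one of -0.29. The counting intervals of Tubg2, Tubd1 and Tuba8 include no difference. Tubb4a, a brain beta tubulin, passed the size rule at -1.27 on 20 and 4 reads, with an interval of -3.40 to 0.19 that includes no difference.

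Nucleation genes were mixed. The gamma-tubulin ring complex and its anchors had all 12 genes measured, 6 below and 6 above 0, with a median of -0.15. Akap9, which anchors nucleation at the Golgi, was higher at 1.25, with 509 and 637 reads. Ninl, a ninein-like centrosome gene, was lower at -1.83 on 30 and 4 reads, and Pcnt, the pericentrin scaffold, at -1.06. Tubgcp2, a core subunit of the complex, had a log2 fold of -0.87 and missed the size rule.

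Among the genes that help fold tubulin, most chaperonin and prefoldin subunits differed in the other direction from the tubulins. The chaperonin CCT, the barrel that folds new tubulin and actin, had 7 of its 8 subunit genes above 0 and a median of 0.65, and none passed the size rule in either direction. Cct8 stood at 1769 in saline and 3095 in treated cells, a log2 fold of 0.81, and Cct6a at 1576 and 2755, also 0.81. Cct5, the subunit gene with the highest count, had a log2 fold of 0.41, and Cct7 was level at -0.02.

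Prefoldin, which hands nascent tubulin to the chaperonin, had all 6 subunit genes above 0, a median of 0.64 and 2 genes past the size rule as higher. These were Pfdn1 at 1.27, with 90 and 115 reads, and Pfdn4 at 1.20, with 20 and 25 reads. Pfdn5 had a log2 fold of 0.37 and Vbp1 one of 0.20, with an interval of -0.04 to 0.44 that includes no difference. Over all symbols 12.1% passed as higher.

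The folding cofactors that build the alpha-beta dimer showed no shared direction: 6 of 9 were above 0, with a median of 0.04. Tbcc, the cofactor that releases the finished dimer, was lower at -1.88, with 52 and 7 reads. Tbcd, which holds beta tubulin, had a log2 fold of -0.30, Tbce, which holds alpha tubulin, one of 0.25 and Pdcl3, a phosducin-like helper of the chaperonin, one of 0.63.

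**Figure D5:**
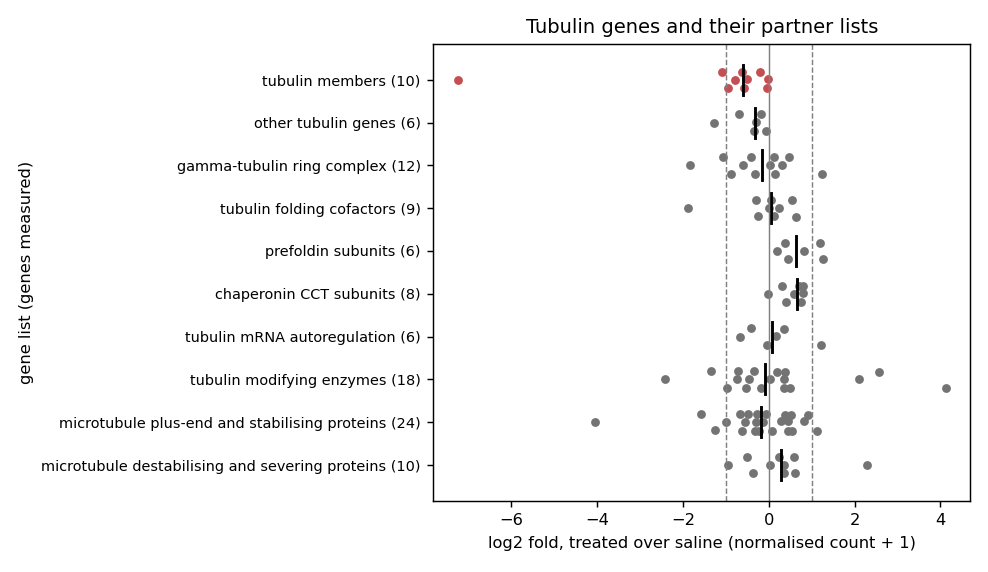
Log2 fold of treated over saline (horizontal axis) for the 10 tubulin members in red and 9 lists of related genes in grey, 1 point per gene and a black bar at each median; dashed lines mark -1 and 1. The tubulin median is -0.60, and the chaperonin and prefoldin medians are 0.65 and 0.64.

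Genes of tubulin mRNA autoregulation were level on balance, 3 of 6 on each side of 0 and a median of 0.07. Ttc5, which reads the start of new tubulin chains at the ribosome, stood at 197 and 124, a log2 fold of -0.66. Scaper, which links it to the deadenylase, stood at 53.8 and 127 and was past the size rule at 1.23. Cnot1, the deadenylase scaffold, was level at -0.04, and Cnot10 had a log2 fold of 0.18.

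Of 23 tubulin modifying enzymes 18 were measured, 9 on each side of 0, with a median of -0.08. The size rule took 3 as higher and 2 as lower, and 3 of these 5 came short of 2-fold against a floor of 3 reads. These 3 were Ttll11 on 0 and 2 reads, Agbl2 on 0 and 3, and Vash2 on 5 and 0. With folds from 0 reads taken as bounds against that floor, and these 3 left out, the median was -0.19. Ttll4, a polyglutamylase, was lower at -1.34, with 373 and 77 reads. Agbl3, a deglutamylase, had 0 reads in saline and 10 in treated cells, at least 6.35-fold higher against that floor. Hdac6, the tubulin deacetylase, had a log2 fold of -0.73 and Sirt2, another deacetylase, one of 0.20.

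The plus-end and stabilising proteins had 24 of 26 genes measured, 14 below 0 and 10 above, with a median of -0.18. The size rule took 3 as lower and 1 as higher. Clip2, a plus-end linker, stood at 1944 and 654, a log2 fold of -1.57. Mapt, the tau gene, had 18 reads in saline and 0 in treated cells, at least 3.15-fold lower against the floor. The spectraplakin Macf1 was close to level at -0.13 and Map7d1 had a log2 fold of -0.30.

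Destabilising and severing proteins had 7 of 10 measured genes above 0, out of 15 on the list, with a median of 0.30. Kif18a, a mitotic motor that shortens microtubules, was higher at 2.30, with 30 and 80 reads. Stmn1, which binds free tubulin dimers, stood at 706 and 903, a log2 fold of 0.36, and the depolymerase Kif2c had one of 0.24. Kif24 had one of -0.94 and missed the size rule.

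Cytoskeletal genes outside the family lay on both sides of 0. Actb, the main cytoplasmic actin, stood at 60896 in saline and 50230 in treated cells, a log2 fold of -0.28. Actg1, the other cytoplasmic actin, had a log2 fold of 0.28 and Vim, the vimentin gene, one of 0.33. Over the 11 measured genes of that list, 6 were below 0 and the median was -0.28. Actc1 and Actg2, muscle actins, had 11 and 9 reads in saline and 0 in treated cells, at least 1.93-fold and at least 1.58-fold lower.

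Markers of other cells were also looked up, since Tubb3 and Tuba4a are known from neurons and platelets. Of 7 megakaryocyte and platelet markers 6 were measured, 5 of them below 0, with a summed level of 3224 in saline and 2765 in treated cells. Pf4 was higher, at 1082 and 1430, and Itgb3 lower, at 1628 and 965. Gp1ba had a log2 fold of -0.64. The part of these genes in the Tuba4a value was not tested. No lymphocyte marker of 7 was listed.

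Of 7 fibroblast markers 5 were measured, with a summed level of 2297 in saline and 2653 in treated cells. Thy1, a surface protein shared with other cell types, had a log2 fold of 0.18, and the collagen genes Col3a1 and Col1a1 had 0.41 and 0.79. The size rule took 1 as higher and 1 as lower, Pdgfra on 0 and 2 reads and Dcn on 3 and 0, both short of 2-fold against the floor. Of 8 macrophage and neutrophil markers 3 were measured, all 3 below 0, with a summed level of 1273 in saline and 510 in treated cells. Csf1r, the receptor of colony-stimulating factor, was lower at -1.36, with 1401 and 286 reads. Cd68, a lysosomal protein, had 19 reads in saline and 0 in treated cells, at least 3.33-fold lower, and Adgre1 had a log2 fold of -0.13. The part of these lists in the tubulin values was not tested.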

How the data were processed

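Per the labels' protocols, RNA isolated from RBL-2H3 cells with Tripure went into stranded TruSeq libraries. Tools named in the submitters' processing notes are STAR 2.5, DESeq 1.22.1, Cuffnorm and FastQC. The sources used here do not give their roles, the build, the annotation or how reads were counted. The deposited values are log2 values per transcript. After 2 to the power of the value minus 1, 100% of both libraries' values came out as whole multiples of 1 step (tolerance 1e-06), read here as reads over a size factor (1.15 saline, 0.605 treated). The authors' deposited p-values per transcript were only copied. A further 8 columns repeat the same values and stayed out.

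Transcripts were summed by symbol with Python 3.11.15, pandas 2.3.3 and SciPy 1.17.1; 1276 transcripts without a symbol were left out of the sums. Folds add 1 to each normalised count. The size rule takes a log2 fold of 1 or more, or -1 or less, where either library reaches a count of 1. Where a library has 0 reads, folds are bounds against a floor of 3 reads per library, a count of 2.60 in saline and 4.95 in treated cells. Intervals are Clopper-Pearson intervals and, with no molecular identifiers known, cover counting error only. The scripts were tested on simulated data. Promoters and gene order come from RefSeq on GRCr8.

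The 10 members and the 16 lists (180 genes, 137 measured) were chosen with earlier results of these data known. Named are all members and measured tubulins, Actb, Actg1, Vim and, per list, the 2 largest differences at a count of at least 5 and the 2 highest means; others, such as Pcnt, Hdc, the neighbours and the clone-named genes, were chosen after their values were seen. The alternatives were 2 pseudocounts, 3 minimum counts, 3 scalings and 2 choices of transcripts.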

Additional observations from a re-analysis of the deposited data

How the results depend on the processing

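The 3 scalings were equal library totals, TMM factors and a median of ratios. They shifted log2 ratios by -0.053, -0.020 and -0.015, all downward, and pseudocounts and minimum counts cannot change a sign. Those alternatives could therefore not bring a member above 0. All 10 tubulin genes stayed below 0 under each of the 10 alternatives. Of 100 member values under these alternatives, 98 lay inside the gene's own counting interval. The other 2, both of Tubb5, lay outside: -0.26 with equal totals and -1.54 with the highest transcript alone. The 3 minimum counts and the choice of protein coding transcripts only left every member value unchanged. Taking the highest transcript alone cannot move a gene with 1 transcript. Much of this tally was therefore fixed in advance. Equal totals also moved the sum of the 3 Tuba1 genes to -0.37. Tubb5 made the count of members past the size rule 3 when the highest transcript stood for each gene, and it was 2 under every other alternative. The median of the members was -0.70 with the highest transcript alone and, in a check added after the values were seen, -0.58 without Tuba1c. Both Tubb5 transcripts stayed inside their intervals under 2 pseudocounts and 3 scalings, also added later.

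No paired analysis was possible because each group is 1 library; for the same reason no library was left out. Depth limits the values on few reads: the counting interval of Tubb3 ran from -1.77 to -0.49 and that of Tuba1c, with 6 treated reads, from -8.83 to -6.25.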

Other observations

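The 3 symbols that shared the steep drop of Tuba1c, with a saline count of at least 500 and at least 100-fold lower, were clone-named. Each has a symbol of the same clone name among the 5 symbols that reached a treated count of at least 500 and stood at least 20-fold above saline. AABR07030184.9 and AABR07030184.10 summed to 2048 reads in saline and 2 in treated cells. AABR07030184.1 and AABR07030184.11 summed to 47 and 1190 reads. The 4 together had a normalised count of 1817 in saline and 1969 in treated cells. That is a log2 fold of 0.12, with an interval of 0.01 to 0.22. These 4 were picked for their opposite differences, and other symbols of that clone name were left out, so their sum carries no test. AABR07037925.1 went from 7563 reads to 1 read and AABR07037925.2 from 0 reads to 17317, and their sum had a log2 fold of 2.12. The other 2 symbols of that kind were AABR07064716.2, with 1 read in saline and 4020 in treated cells, and LOC100910308, with 0 and 328. The sources used here do not say what sequence the clone-named symbols hold. For the 3 Tuba1 genes the sum had a log2 fold of -0.32, beside -0.33 for the 6 beta genes summed. None of the 10 members and 6 other tubulin genes stood higher in the treated library. Some of their counting intervals, such as those of Tuba1a, Tuba1b, Tuba8 and Tubg2, include no difference. All these levels are net values, and whether Tuba1c reads were counted under other rows was not tested.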
